A study of Schizosaccharomyces pombe with 12 samples.

Results

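The *meu* and *mug* genes of fission yeast were named for meiosis: *meu* stands for meiotic expression upregulated and *mug* for meiotically upregulated gene. Their transcripts were followed in cultures growing in rich medium. A probe set was taken as a member when its gene symbol, from the annotation of the array or from the gene names that accompany the study and brought up to date, was *meu* or *mug* followed by digits only. The rule found 98 of the 4875 *Schizosaccharomyces pombe* probe sets, which stand for 98 genes (15 *meu* and 83 *mug*), each with 1 probe set. Of these names, 48 came from the study's gene names and 50 from the annotation of the array. The reference annotation (RefSeq) lists 115 genes with such names, and the other 17 were not analysed here. A further 83 probe sets belong to genes that had a *meu* or *mug* name only in the past and were kept apart.

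RNA was measured in 4 groups of cells, each with 3 biological replicates, which makes 12 arrays with 1 culture each. The *rpb1-12XS2ACTD* strain makes RNA polymerase II whose carboxy terminal domain (CTD) has 12 heptad repeats, with alanine in place of the serine at position 2 of every repeat, so that this residue cannot be phosphorylated. The *rpb1-12XCTD* strain carries 12 repeats of the unchanged heptad, so both strains have a CTD that is shorter than that of wild type cells, and each is a single *h-* strain with the *ura4* and *leu1* markers. Both were grown in rich medium and given 0.5 µM latrunculin A (LatA), which binds actin monomers and blocks actin polymerization, or its solvent DMSO, for 3 h. Values are the normalised log2 signals of the authors, centred so that the median of each probe set over the 12 arrays is 0, which leaves differences between arrays but not the level of a gene against another gene.

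As background, a growing fission yeast cell keeps its meiotic genes low in more than one way. The transcription factor Ste11 switches on sexual differentiation when nutrients run out, Mei4 drives the genes of the meiotic divisions and of spore formation, and the kinase Pat1 holds Ste11 and the RNA binding protein Mei2 in check. Meiotic transcripts that are made in growing cells are bound by Mmi1 and degraded by the nuclear exosome, and Mei2 counteracts Mmi1 once meiosis begins.

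The members are a loose group. Of the 48 described by the study's gene names, 27 were given only as sequence orphan, hypothetical, dubious or found in *S. pombe* alone, and 21 had some other description. Chromosome III held 23 of the 98 (23.5%), against 17.4% of all named probe sets, chromosome II 29 (29.6%, against 37.5%) and chromosome I 46 (46.9%, against 45%). Only 1 member (1.02%) lay among the 40 outermost protein-coding genes at an end of chromosome I or II, against 1.84% of all named probe sets. Of the study's own gene lists, CESR-Up (genes that rise in the core environmental stress response) held 4 members (4.08%, against 3.48% of all named probe sets). CESR-Down held none (against 2.66%). The stress list held 7 (7.14%, against 14.4%) and the cytokinesis list 2 (*mug27* and *mug184*, 2.04%, against 8.52%). The remaining 89 were in none of these lists.

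The group means of the members were spread more widely than those of all probe sets. The difference between the highest and the lowest group mean ran from 0.054 on the log2 scale (*mug65*) to 2.54 (*mug147*), with a median of 0.58 over the members and 0.40 over all probe sets. It was over 1.5 fold in 46 of 98 members (46.9%) and in 27.5% of all probe sets. The median SD between replicates was also larger over the members in every group (given below), and its part in these ranges was not tested. The group with the lowest mean was *rpb1-12XCTD* in DMSO for 57 members (58.2%, against 42.8% of all probe sets), and it was the highest for 6 (6.12%, against 13.3%). The highest group was *rpb1-12XS2ACTD* in LatA for 38 members (38.8%, against 24.1%) and *rpb1-12XS2ACTD* in DMSO for 35 (35.7%, against 27.8%).

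The arrays of the DMSO groups were less alike than those of the LatA groups. The median SD between replicates over the members was 0.10 in *rpb1-12XS2ACTD* and 0.10 in *rpb1-12XCTD* with LatA, and 0.17 and 0.23 in the same strains with DMSO. Over all probe sets these medians were 0.078, 0.068, 0.097 and 0.20. Replicate 1 of *rpb1-12XS2ACTD* in DMSO differed from the mean of its fellow replicates by more than 1 on the log2 scale for 4 members, all upwards. They were *mug96* (2.51, against 0.12 and −0.022 in the other replicates), *mug116* (1.86, against −0.13 and −0.050), *mug20* (1.11, against −0.20 and −0.36), which encodes a protein of the meiotic linear elements, and *meu15* (1.06, against 0.0099 and −0.0099). None of these 4 was called in any comparison. Replicate 1 of *rpb1-12XCTD* in DMSO had the lowest median over the members of all arrays (−0.29, with −0.16 over all probe sets), and *meu14* and *mug14* lay more than 1 below its fellow replicates there.

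**Figure D1:**
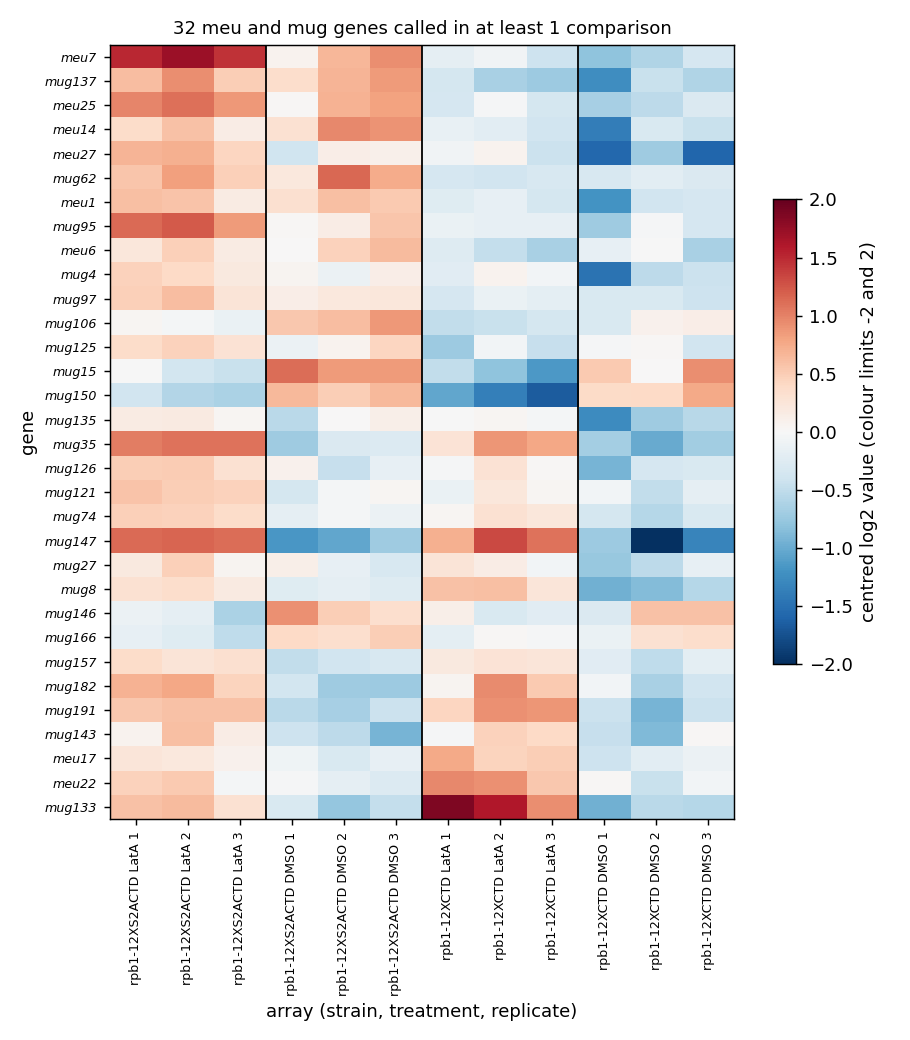
Centred log2 values of the 32 *meu* and *mug* genes that were called in at least 1 comparison, one row per gene and one column per array, with black lines between the 4 groups (*rpb1-12XS2ACTD* with LatA and DMSO, then *rpb1-12XCTD* with LatA and DMSO). Colours are cut at −2 and 2. Genes at the top, such as *meu7*, are high in both *rpb1-12XS2ACTD* groups, and a second set, such as *mug147* and *mug35*, is high in the LatA groups of both strains.

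With LatA, the strains differed in 10 of the 98 members (2.89% of all probe sets were called). A gene is called here when its adjusted p (limma, Benjamini-Hochberg over all 4875 probe sets) is under 0.05 and its fold change is over 1.5 (0.585 on the log2 scale). In *rpb1-12XS2ACTD* 9 members (9.18%) were higher and 1 (1.02%) was lower than in *rpb1-12XCTD*, whereas 1.39% of all probe sets were higher and 1.5% lower. The median log2 difference was 0.14 over the members and −0.045 over all probe sets, and 63 members (64.3%) were above 0, against 38.1% of all probe sets. The arrays of the strains did not overlap in 56 members (57.1%, against 47.7% of all probe sets).

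The largest difference was that of *meu7*, which encodes a homologue of alpha-amylase. Its log2 values were 1.502, 1.704 and 1.442 in *rpb1-12XS2ACTD* cells with LatA, against −0.19, −0.065 and −0.41 in *rpb1-12XCTD* cells with LatA, a difference of 1.77 (SE 0.20, limma adjusted p = 0.00121). The *rpb1-12XS2ACTD* arrays were thus above every other array of the series. *mug95*, a sequence orphan, had 1.13, 1.23 and 0.85 in *rpb1-12XS2ACTD*, against −0.13, −0.16 and −0.17 in *rpb1-12XCTD*, a difference of 1.22 (SE 0.18, limma adjusted p = 0.0061). *meu25* had 0.98, 1.11 and 0.86, against −0.33, −0.021 and −0.35 in *rpb1-12XCTD* (difference 1.22, SE 0.19, limma adjusted p = 0.00699). Both genes were at their highest in the LatA treated *rpb1-12XS2ACTD* cells, and in neither did the strains overlap.

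*mug137*, whose product has an SH3 domain, was set apart by strain in either treatment. It had 0.61, 0.93 and 0.50 in *rpb1-12XS2ACTD* with LatA, against −0.35, −0.65 and −0.73 in *rpb1-12XCTD* with LatA (difference 1.26, SE 0.21, limma adjusted p = 0.00966). *mug62* had 0.56, 0.83 and 0.47 in *rpb1-12XS2ACTD* and −0.33, −0.39 and −0.32 in *rpb1-12XCTD* (difference 0.97, SE 0.19, limma adjusted p = 0.0192). The values of both genes were positive in all LatA arrays of *rpb1-12XS2ACTD* and negative in all those of *rpb1-12XCTD*.

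Smaller differences were seen in *mug125* (0.78, limma adjusted p = 0.0338), *meu6* (0.75, adjusted p = 0.0481) and *mug97* (0.67, adjusted p = 0.00586), whose span overlaps that of *mug57* in the reference annotation. *mug150* was low with LatA in both strains but less so in *rpb1-12XS2ACTD*, with −0.39, −0.58 and −0.63, against −1.03, −1.37 and −1.66 in *rpb1-12XCTD* (difference 0.82, SE 0.15, adjusted p = 0.0167). The one member that was lower in *rpb1-12XS2ACTD* was *mug133*. It had 0.59, 0.63 and 0.31 in *rpb1-12XS2ACTD*, against 1.87, 1.61 and 0.92 in *rpb1-12XCTD* (difference −0.96, SE 0.22, adjusted p = 0.0338). No array of the one strain reached into the range of the other. Just outside the fold threshold was *mug160* (−0.56, adjusted p = 0.0317).

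With the replicate number as a block, which pairs these arrays, 8 members were called, all higher, and *meu6* (limma adjusted p = 0.0719) and *mug133* (limma adjusted p = 0.0564) were not. Of the 10 calls, those of *meu7*, *mug95* and *meu25* held when any 1 of the 12 arrays was left out. The count was 3 without *rpb1-12XS2ACTD* LatA replicate 2, 5 without replicate 1 or 3 of that group and 6 without any 1 of the *rpb1-12XCTD* LatA arrays, and with quantile normalization it was 18 (17 higher, 1 lower).

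**Figure D2:**
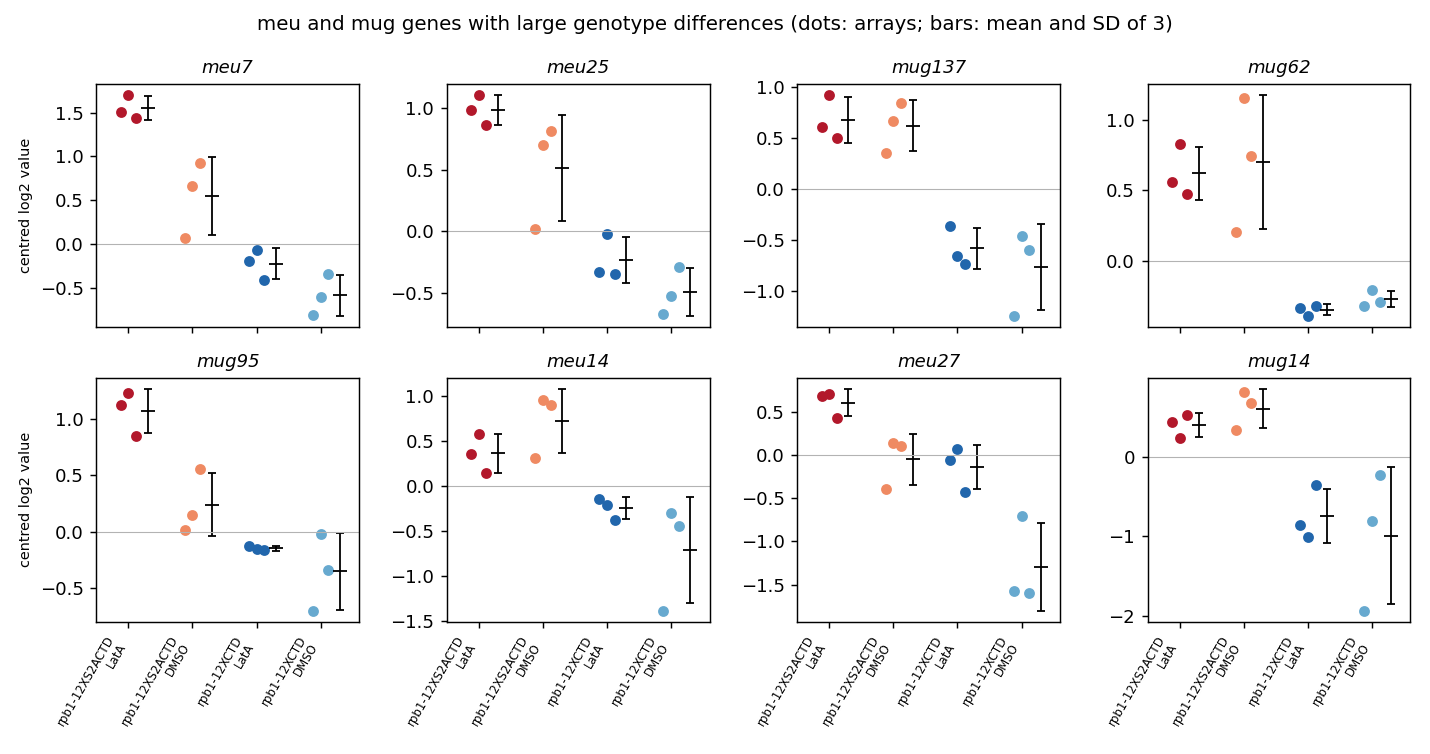
Centred log2 value (vertical axis) of 8 *meu* and *mug* genes with large differences between strains, by group; dots are arrays and bars the mean and SD of 3. In each panel the arrays of *rpb1-12XS2ACTD* lie above those of *rpb1-12XCTD* of the same treatment. The LatA treated *rpb1-12XS2ACTD* cells have the highest mean for *meu7*, *meu25*, *mug95*, *meu27* and, by little, *mug137*.

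With DMSO, 8 members (8.16%) were higher in *rpb1-12XS2ACTD* and none was lower, whereas 0.841% of all probe sets were called higher and 0.0205% lower (0.862% in either direction). At an unadjusted p under 0.05 limma gave 36 members higher (36.7%, against 14.3% of all probe sets) and still none lower (against 2.63%). The methods' test called no member and no other probe set after adjustment, nor did limma on the DMSO arrays alone. Without adjustment the methods' test called 10 members higher and none lower, among 75 of all probe sets. The median log2 difference was 0.24 over the members and 0.064 over all probe sets. It was above 0 in 86 members (87.8%, against 70.4% of all probe sets), and the arrays of the strains did not overlap in 23 (23.5%, against 9.54%). These shares and medians depended on the scaling. After median centring 74 members were above 0 (75.5%, against 49.7%), with medians of 0.17 over the members and −0.0014 over all probe sets. After quantile normalization 70 were above 0 (71.4%, against 46.6%), with medians of 0.14 and −0.012. The most negative difference of a member was −0.33.

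*meu14*, needed for the leading edge of the forespore membrane that wraps each spore, had the largest called difference. Its values were 0.31, 0.96 and 0.90 in *rpb1-12XS2ACTD* with DMSO, against −1.39, −0.30 and −0.45 in *rpb1-12XCTD* with DMSO (difference 1.43, SE 0.26, limma adjusted p = 0.0261). The strains did not overlap, though 1 *rpb1-12XCTD* array lay well below its fellows. With LatA *meu14* had 0.36, 0.58 and 0.15 in *rpb1-12XS2ACTD*, against −0.15, −0.21 and −0.38 in *rpb1-12XCTD*, again with no overlap but not called (difference 0.61, limma adjusted p = 0.192). *mug137* had 0.35, 0.67 and 0.85 in *rpb1-12XS2ACTD* with DMSO, against −1.24, −0.45 and −0.60 in *rpb1-12XCTD* (difference 1.39, SE 0.21, limma adjusted p = 0.0161).

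*meu27* was lowest in *rpb1-12XCTD* with DMSO. It had −0.39, 0.14 and 0.10 in *rpb1-12XS2ACTD*, against −1.58, −0.71 and −1.59 in *rpb1-12XCTD* (difference 1.24, limma adjusted p = 0.0339). *meu1*, whose probe set matches several transcripts and is named *meu2* by the study and *meu1* by the reference annotation, had 0.32, 0.60 and 0.52 in *rpb1-12XS2ACTD*, against −1.20, −0.39 and −0.33 in *rpb1-12XCTD* (difference 1.12, SE 0.20, limma adjusted p = 0.0261). Neither gene showed an array of one strain within the range of the other.

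The other calls were *meu7*, *meu25*, *mug62* and *mug106*. *meu7* had 0.065, 0.66 and 0.93 in *rpb1-12XS2ACTD*, against −0.81, −0.61 and −0.34 in *rpb1-12XCTD* (difference 1.13, limma adjusted p = 0.0259). *meu25* had 0.021, 0.70 and 0.81, against −0.67, −0.52 and −0.29 in *rpb1-12XCTD* (difference 1.00, adjusted p = 0.0327). In both, replicate 1 of *rpb1-12XS2ACTD* was the nearest to the other strain. The differences of *mug62* and *mug106* were 0.97 (adjusted p = 0.0366) and 0.70 (adjusted p = 0.0259).

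*mug14* had the largest difference of all members in DMSO and was not called. It had 0.33, 0.81 and 0.67 in *rpb1-12XS2ACTD* with DMSO, against −1.93, −0.81 and −0.24 in *rpb1-12XCTD* (difference 1.60, SE 0.34, limma adjusted p = 0.0604). With LatA it had 0.44, 0.24 and 0.53 in *rpb1-12XS2ACTD*, against −0.85, −1.01 and −0.36 in *rpb1-12XCTD* (difference 1.14, limma adjusted p = 0.0729). The strains were apart in both treatments, but the *rpb1-12XCTD* arrays were widely spread. Under the fold threshold with an adjusted p under 0.05 were *mug8* (0.58) and *mug97* (0.53).

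None of the 8 calls in DMSO held when every array in turn was left out. Among the DMSO arrays, the count was 0 without replicate 2 or 3 of *rpb1-12XS2ACTD*, 15 without its replicate 1, 3 without replicate 1 of *rpb1-12XCTD*, 16 without replicate 3 of that strain, and 13 (12 higher, 1 lower) without both replicates numbered 1; it was 5 without any 1 of the *rpb1-12XS2ACTD* LatA arrays or *rpb1-12XCTD* LatA replicate 1.

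*meu7*, *meu25*, *mug62* and *mug137* were called higher in *rpb1-12XS2ACTD* in both treatments, which is 44.4% of the higher calls with LatA and 50% of those with DMSO. The group means compared share no array, but the spread comes from 1 fit of all 12 arrays, so the calls are not independent. The share of such repeated calls over all probe sets was not computed. The union of the calls was 14 genes. Of the 15 *meu* genes 3 were called higher with LatA and 5 with DMSO (median differences 0.41 and 0.40), and of the 83 *mug* genes 6 higher and 1 lower with LatA and 3 higher with DMSO (medians 0.13 and 0.24). Whether *meu* genes differ from *mug* genes was not tested.

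**Figure D3:**
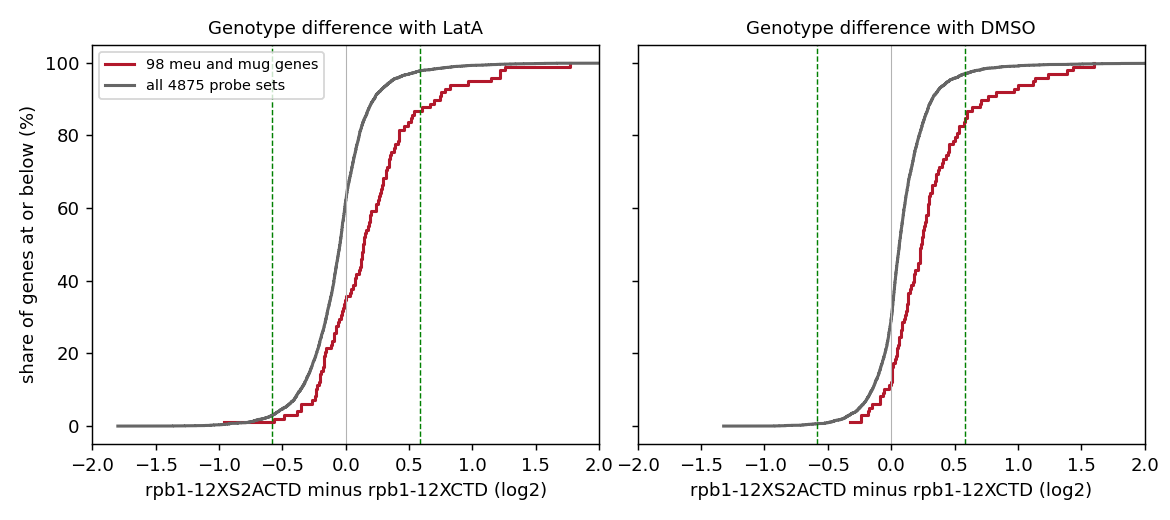
Share of genes (vertical axis, percent) at or below each log2 difference of *rpb1-12XS2ACTD* minus *rpb1-12XCTD* (horizontal axis, shown from −2 to 2) with LatA (left) and DMSO (right), for the 98 *meu* and *mug* genes (red) and all 4875 probe sets (grey); dashed lines mark 1.5 fold. The red curve lies right of the grey one over most of its length, with medians of 0.14 against −0.045 with LatA and 0.24 against 0.064 with DMSO.

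LatA gave calls in 24 members, 9 of them in both strains, and the matching shares of all probe sets were not computed. In *rpb1-12XS2ACTD* 11 members (11.2%) were higher and 5 (5.1%) lower with LatA than with DMSO, whereas 6.13% of all probe sets were called higher and 5.37% lower (11.5% in either direction). In *rpb1-12XCTD* 15 members (15.3%) were higher and 2 (2.04%) lower, whereas 10.6% of all probe sets were called higher and 2.58% lower (13.2% in either direction). The split of the calls in *rpb1-12XCTD* depended on the scaling: it was 12 higher and 4 lower after each array was centred on its median, and 9 higher and 5 lower after quantile normalization. The median difference over the members was 0.051 in *rpb1-12XS2ACTD* (−0.0086 over all probe sets) and 0.16 in *rpb1-12XCTD* (0.098 over all). After quantile normalization the medians in *rpb1-12XCTD* were −0.030 over the members and −0.016 over all probe sets. The arrays did not overlap in 48 members (49%, against 56.8% of all probe sets) in *rpb1-12XS2ACTD* and 45 (45.9%, against 43%) in *rpb1-12XCTD*.

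The largest rise in both strains was that of *mug147*, described only as a hypothetical protein. In *rpb1-12XS2ACTD* it had 1.14, 1.16 and 1.12 with LatA, against −1.16, −1.04 and −0.70 with DMSO (difference 2.11, SE 0.29, limma adjusted p = 0.000632). In *rpb1-12XCTD* it had 0.70, 1.33 and 1.08 with LatA, against −0.72, −2.14 and −1.33 with DMSO (difference 2.44, limma adjusted p = 0.000207). All LatA arrays were thus above 0 and all DMSO arrays below it.

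*mug147* is one of the 4 members in the CESR-Up list, with *mug35*, *mug143* and *mug191*, a predicted glycosyl hydrolase. *mug35* had 1.02, 1.08 and 1.09 in *rpb1-12XS2ACTD* with LatA, against −0.71, −0.30 and −0.27 with DMSO (difference 1.49, limma adjusted p = 0.000337), and a difference of 1.44 in *rpb1-12XCTD* (adjusted p = 0.000194). *mug191* had 0.54, 0.58 and 0.59 in *rpb1-12XS2ACTD* with LatA, against −0.54, −0.67 and −0.43 with DMSO (difference 1.11, adjusted p = 0.000647), and a difference of 1.33 in *rpb1-12XCTD* (adjusted p = 0.000193). *mug143* rose by less, 0.89 in *rpb1-12XS2ACTD* (adjusted p = 0.0147) and 0.72 in *rpb1-12XCTD* (adjusted p = 0.0356), and in *rpb1-12XCTD* its arrays overlapped. Its call was lost without DMSO replicate 3 or LatA replicate 2 in *rpb1-12XS2ACTD*, and without DMSO replicate 1 or 2 or LatA replicate 2 or 3 in *rpb1-12XCTD* (0.49 without DMSO replicate 2). All 4 were thus called in both strains, with median differences of 1.30 and 1.39. Of the 132 other CESR-Up probe sets 56 were higher and 5 lower with LatA in *rpb1-12XS2ACTD*, and 63 higher and 5 lower in *rpb1-12XCTD*. The 94 members outside the list had 7 higher and 5 lower calls in *rpb1-12XS2ACTD* and 11 higher and 2 lower in *rpb1-12XCTD*.

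Outside CESR-Up, *mug133*, *mug182* and *mug126* were also higher with LatA in both strains. *mug133* had 1.87, 1.61 and 0.92 in *rpb1-12XCTD* with LatA, against −0.96, −0.54 and −0.56 with DMSO (difference 2.15, SE 0.22, limma adjusted p = 0.000118), and in *rpb1-12XS2ACTD* its difference was 1.03 (adjusted p = 0.00535). *mug182*, a conserved protein, had 0.70, 0.78 and 0.44 in *rpb1-12XS2ACTD* with LatA, against −0.37, −0.71 and −0.72 with DMSO (difference 1.24, adjusted p = 0.00199), and a difference of 0.87 in *rpb1-12XCTD* (adjusted p = 0.00961). *mug126* rose by 0.61 in *rpb1-12XS2ACTD* (adjusted p = 0.0224) and 0.62 in *rpb1-12XCTD* (adjusted p = 0.02), and both calls could be lost with 1 array left out (0.47 without DMSO replicate 2 of *rpb1-12XS2ACTD* and 0.41 without DMSO replicate 1 of *rpb1-12XCTD*). The 7 members that were higher in both strains are 63.6% of the rises in *rpb1-12XS2ACTD* and 46.7% of those in *rpb1-12XCTD*. Here too the group means share no array but the spread comes from the same fit, so the calls are not independent. No share over all probe sets was computed for them.

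*mug150* and *mug15* were lower with LatA in both strains. *mug150* had −0.39, −0.58 and −0.63 in *rpb1-12XS2ACTD* with LatA, against 0.65, 0.49 and 0.65 with DMSO (difference −1.13, limma adjusted p = 0.000632). In *rpb1-12XCTD* it had −1.03, −1.37 and −1.66 with LatA, against 0.39, 0.40 and 0.75 with DMSO (difference −1.87, SE 0.15, adjusted p = 4.56e-05). *mug15*, a sequence orphan, fell by 1.21 in *rpb1-12XS2ACTD* (adjusted p = 0.00272) and by 1.30 in *rpb1-12XCTD* (adjusted p = 0.00139). In all 4 comparisons the LatA arrays lay below the DMSO arrays. These 2 genes are 40% of the falls in *rpb1-12XS2ACTD* and 100% of those in *rpb1-12XCTD*.

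Called in *rpb1-12XS2ACTD* alone were the rises of *meu7* (1.00), *mug95* (0.83), *mug157* (0.72) and *mug121* (0.62), and the falls of *mug146* (−0.90), *mug106* (−0.72) and *mug166* (−0.71). Called in *rpb1-12XCTD* alone were the rises of *mug8* (1.28), *meu27* (1.15), *meu22* (0.96), a predicted amino acid transporter, *mug135* (0.84), *meu17* (0.82), a predicted glucosidase, *mug4* (0.73), *mug74* (0.61) and *mug27* (0.60), a protein kinase of forespore membrane formation. That a gene passed in one strain only does not show that the strains responded differently, and the test of that difference is given next. By the methods' test with adjustment, 12 members were called in *rpb1-12XS2ACTD* and none in *rpb1-12XCTD* (14 there without adjustment). Leaving out 1 array could also end the calls of *mug121* and *mug146* in *rpb1-12XS2ACTD* and of *mug4*, *mug74* and *mug27* in *rpb1-12XCTD*. *mug4* had 0.40 without DMSO replicate 1 and was also lost without LatA replicate 2 or 3, *mug74* was lost without replicate 2 of either treatment, and *mug27* without replicate 1 or 2 of either. In *rpb1-12XCTD* *mug74* and *mug27* were lost after median centring too, as was *mug126*. Leaving out 1 array kept the counts between 14 and 17 in *rpb1-12XS2ACTD* and between 13 and 23 in *rpb1-12XCTD*.

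**Figure D4:**
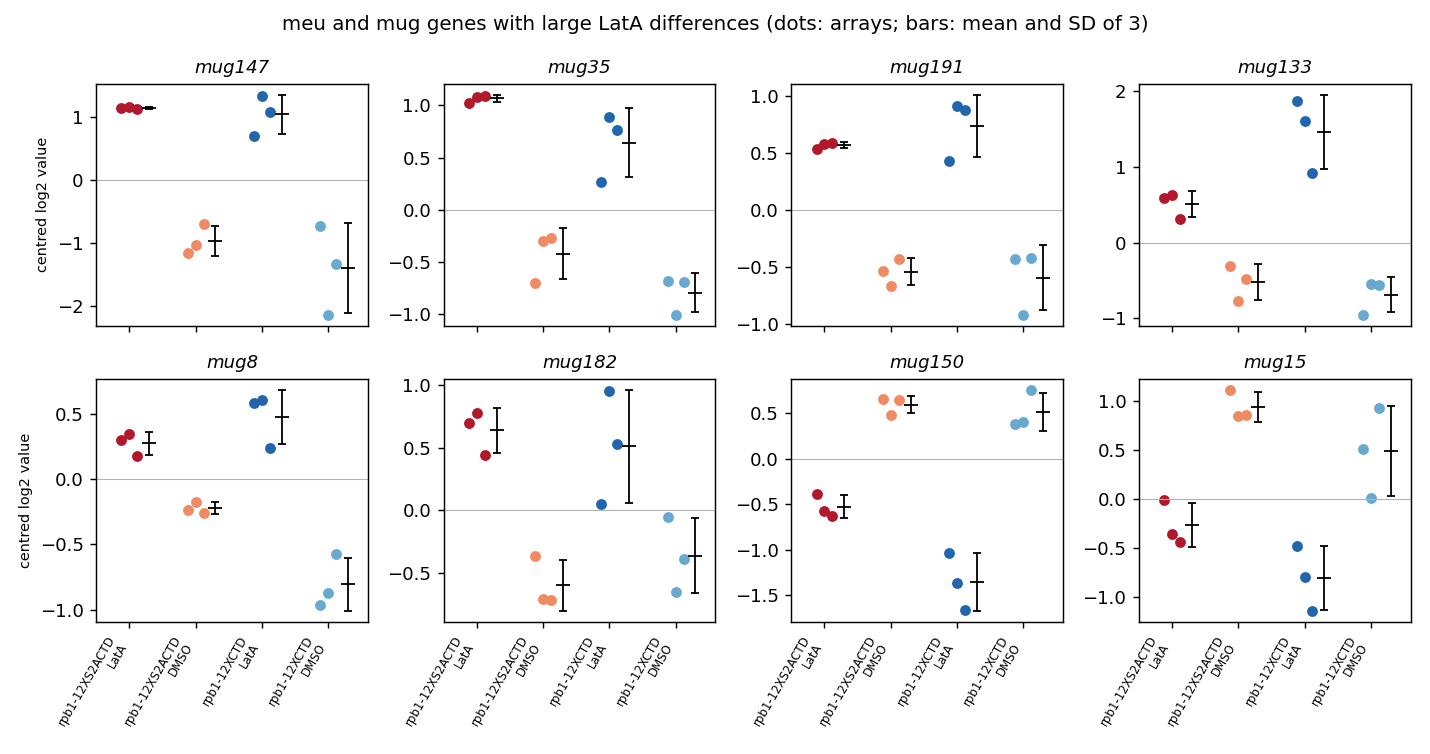
Centred log2 value (vertical axis) of 8 *meu* and *mug* genes with large LatA differences, by group; dots are arrays and bars the mean and SD of 3. *mug147*, *mug35*, *mug191*, *mug133*, *mug8* and *mug182* are higher with LatA than with DMSO, and *mug150* and *mug15* lower, in both strains.

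No member was called for a different LatA response in the 2 strains, where 1 of all 4875 probe sets was called higher (0.0205%) and none lower. This contrast takes the LatA difference of *rpb1-12XS2ACTD* cells and subtracts the one found in *rpb1-12XCTD* cells. At an unadjusted p under 0.05 limma gave 12 members (12.2%, against 11% of all probe sets), 3 above 0 and 9 below, and 6 of the 12 were over 1.5 fold. The smallest p was that of *mug8*, which rose by 1.28 in *rpb1-12XCTD* and had a difference of 0.50 in *rpb1-12XS2ACTD* (contrast −0.78, SE 0.17, limma adjusted p = 0.193). *mug133* had a contrast of −1.13 (adjusted p = 0.328), *meu14* −0.83 (adjusted p = 0.452), *mug150* 0.74 (adjusted p = 0.358), *meu7* 0.64 (adjusted p = 0.449) and *mug95* 0.63 (adjusted p = 0.425). The median SE of the contrast was 0.21 over the members. After quantile normalization *mug150* was called (0.72, adjusted p = 0.0413), and without *rpb1-12XCTD* DMSO replicate 3 *mug8* was called (−0.89, adjusted p = 0.0417).

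**Figure D5:**
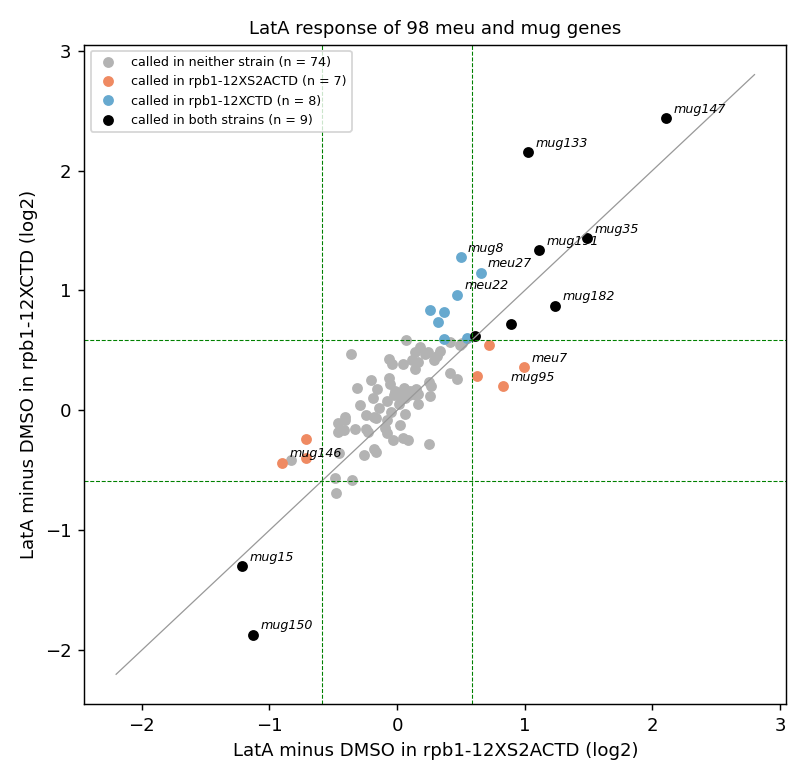
Log2 difference of LatA minus DMSO in *rpb1-12XS2ACTD* (horizontal axis) and *rpb1-12XCTD* (vertical axis) for the 98 *meu* and *mug* genes; colours show in which strain a gene was called, dashed lines 1.5 fold and the grey line equal differences. 9 genes were called in both strains, 7 in *rpb1-12XS2ACTD* only, 8 in *rpb1-12XCTD* only and 74 in neither.

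In all, 32 of the 98 members were called in at least 1 comparison and 66 in none. The matching share of all probe sets was not computed, nor was it for the 14 called for strain or the 24 called for LatA. For LatA alone, 11.5% of all probe sets were called in *rpb1-12XS2ACTD* and 13.2% in *rpb1-12XCTD*. Of the members, 6 were called both for strain and for LatA: *meu7*, *meu27*, *mug95*, *mug106*, *mug133* and *mug150*. Because these comparisons share arrays, their calls are not independent.

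Genes that govern meiosis in this yeast gave no single direction. In a list of genes of meiotic entry and transcription, 14 of 17 symbols were found. With LatA 2 of these were higher and 2 lower in *rpb1-12XS2ACTD* (1.39% and 1.5% of all probe sets). *ste11* had 0.44, 0.33 and 0.32 in *rpb1-12XS2ACTD* with LatA, against 1.88, 1.61 and 1.39 in *rpb1-12XCTD* with LatA (difference −1.27, SE 0.20, limma adjusted p = 0.00902). It rose with LatA in both strains, by 1.40 in *rpb1-12XS2ACTD* (adjusted p = 0.000806) and by 2.30 in *rpb1-12XCTD* (adjusted p = 7.99e-05). Like *mug133*, and unlike *meu7*, it was highest in *rpb1-12XCTD* with LatA. *mei2* was also lower in *rpb1-12XS2ACTD* with LatA (−0.62, adjusted p = 0.0405), a call that was lost without any 1 of 7 arrays, with adjusted p up to 0.153.

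The 2 that were higher were *cuf2*, a transcription factor of meiotic genes (0.78, limma adjusted p = 0.0064), and *crp79*, an RNA binding protein formerly called *meu5* (1.21, adjusted p = 0.00656). Both were also higher in *rpb1-12XS2ACTD* with DMSO (0.75, adjusted p = 0.0177, and 1.01, adjusted p = 0.0259). *mei4* had differences of 0.28 with LatA (adjusted p = 0.192) and 0.24 with DMSO (adjusted p = 0.341). With LatA, *res2* and *atf31* rose and *rep2* fell in both strains, and *mei2* rose in *rpb1-12XCTD* (0.80, limma adjusted p = 0.00227). *pat1* had 0.66 there (adjusted p = 0.0433), a call that was lost without any 1 of 8 arrays, with adjusted p up to 0.131.

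The genes of meiotic RNA elimination did not pass in any comparison. Of 17 symbols 15 were found, with median differences between the strains of −0.0031 with LatA and 0.075 with DMSO. limma gave 3 of the 15 an unadjusted p under 0.05 with LatA (20%, against 23% of all probe sets), all lower, and 1 with DMSO (6.67%, against 17%), which was higher. *mmi1* itself had −0.30 with LatA (adjusted p = 0.0301), under the fold threshold. The signal of *rpb1*, the gene that carries the changed repeats, had differences of −0.20 with LatA (adjusted p = 0.404) and −0.17 with DMSO (adjusted p = 0.545).

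Of 15 genes of meiotic recombination and pairing found, 1 was higher in *rpb1-12XS2ACTD* with LatA (*dmc1*, the meiotic recombinase, 0.83) and 3 with DMSO (*rec10*, of the linear elements, 1.99, *dmc1* 0.90 and *mde2* 0.66). Of 17 genes of sporulation, 1 was higher with LatA (*spn6*, a septin of spore formation, 0.68) and 2 with DMSO (*spn6* 0.86 and *spo7* 0.74), and none of either list was lower. Of all probe sets, 1.39% were higher and 1.5% lower with LatA, and 0.841% higher and only 0.0205% lower with DMSO. No list was tested against these shares. The 83 genes with a former *meu* or *mug* name had 3 higher and 1 lower with LatA and 5 higher with DMSO. Their median differences were −0.021 and 0.14, against −0.045 and 0.064 over all probe sets. The higher ones with LatA were *crp79*, *say1* (0.99) and *wtf11* (0.62), and the lower one was *jmj4* (−0.96). The calls of *crp79* in both treatments and of *spo7* with DMSO were also counted in the lists above.

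Markers of mating type moved with strain and drug as well. The strains are *h-* (M cells), and of 8 probe sets for M cell markers 2 were lower in *rpb1-12XS2ACTD* with LatA (*mfm2* −1.54 and *mam1* −0.60), none was called with DMSO, and 3 were higher with LatA in *rpb1-12XCTD*. Another 4 mating genes were listed as P cell markers, but *mam3* and *sxa2* among them act in M cells, so the list does not stand for P cells. Of these 4, 1 was higher in *rpb1-12XS2ACTD* with LatA (*mam3*, 0.70) and none was called with DMSO. *mam3* also rose with LatA in both strains (0.76 in *rpb1-12XS2ACTD* and 0.86 in *rpb1-12XCTD*), and *sxa2* rose in *rpb1-12XCTD* (0.59). Of all probe sets, 6.13% rose with LatA in *rpb1-12XS2ACTD* and 10.6% in *rpb1-12XCTD*. Between the strains with LatA, 1.39% of all probe sets were higher and 1.5% lower. Since the values are centred, they do not show which of these genes were expressed at all, and the part of mating or meiotic cells in the members' differences was not tested. In bulk RNA of this kind, few cells with much transcript and many cells with little cannot be told apart.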

How the data were processed

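RNA of 12 cultures was hybridized to Affymetrix Yeast Genome arrays, 3 per strain and treatment. The authors normalized the arrays by RMA (in GeneSpring GX 10.0.1, per their methods; the RMA version is not given in the sources used here) and the deposited values are in log2, with each probe set centred to a median of 0 over the 12 arrays by a step those sources do not describe. Depth has no meaning for arrays, so the 3 replicates per group limit the precision, and a filter on dim probe sets could not be applied.

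All 4875 probe sets entered a limma 3.58.1 fit of the 4 group means (R 4.3.3, with tables in Python 3.11.15). It gave 5 comparisons: the strains with LatA and with DMSO, LatA in each strain, and the difference of those LatA effects. The procedure was also run on simulated data with spreads taken from the real values, for the comparison of the strains with LatA only. Calls needed a fold over 1.5 and p under 0.05 after Benjamini-Hochberg adjustment across the whole table. The methods' test is the gene-specific test that the study names, run here with equal variances. Since values are on the log2 scale, differences are too. Named were up to 15 called members in each direction of each comparison, those with the largest differences also by array, those next to the threshold, and up to 6 called genes of each other list; *mug14*, *mug65*, *mug96*, *mug116*, *mug20* and *meu15* were named after their values were seen. Of the probe sets 2584 were named through the study's gene names, 1337 through the annotation of the array, and 954 had no single name and stayed in every test. The deviations of same-numbered arrays from their group means correlated at 0.34, 0.20 and 0.26 between the LatA groups of the strains, so replicate numbers, which the labels give, were taken to pair those arrays, and no other groups compared had all 3 pairs above 0.1. Members, lists and tests were chosen with earlier results of these data known. Alternatives were another scaling, test, variance model, array weights, membership by former names, a replicate block and leaving out each array. No sequences were used here.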

Additional observations from a re-analysis of the deposited data

How the results depend on the processing

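Counts of called members were compared with 10 and 8 for the strains with LatA and DMSO, 16 and 17 for LatA in *rpb1-12XS2ACTD* and *rpb1-12XCTD*, and 0 for the difference of the LatA effects. Leaving out 1 array gave ranges of 3 to 13, 0 to 16, 14 to 17, 13 to 23 and 0 to 1. Quantile normalization gave 18 for the strains with LatA, 3 with DMSO and 1 for the difference of the LatA effects. For the strains with DMSO the count was 0 with the 2 compared groups alone and by the methods' test with adjustment (0 of all probe sets in either), 5 with a trended, robust variance and 13 without both arrays numbered 1 in DMSO, an alternative chosen after seeing the data. For LatA in *rpb1-12XCTD* the methods' test with adjustment gave 0 members, and 15 of all probe sets. Without the fold threshold LatA gave 31 in *rpb1-12XS2ACTD* and 32 in *rpb1-12XCTD*. With former names included, the counts were 13 for the strains with DMSO and 25 and 31 for LatA in *rpb1-12XS2ACTD* and *rpb1-12XCTD*. Array weights gave 15, 10, 15, 22 and 0. After quantile normalization the median over the members was −0.030 for LatA in *rpb1-12XCTD* (0.16 before; over all probe sets −0.016, and 0.098 before) and 0.079 for the difference of the LatA effects (−0.12 before; over all probe sets 0.012, and −0.12 before). The cause of these shifts was not tested. With the replicate number as a block the counts were 8, 9, 17, 16 and 0. Besides *meu6* and *mug133* with LatA, where the numbers pair the arrays, the block ended the call of *mug143* in *rpb1-12XCTD* (adjusted p = 0.0632) and of no other called member. In the other comparisons the arrays share only a number (of 18 same-numbered pairs over all groups 7 had a correlation above 0.1, with a range of −0.40 to 0.34). Over single genes and medians, 1632 of the recomputed values were counted as unchanged. For a single gene this meant the same direction and side of the threshold, or no call in either setting. In the latter case the sign could change, as for *pat1* with LatA in *rpb1-12XS2ACTD* (−0.26 to 0.18). For a median it meant a shift smaller than the spread between replicates. Of the rest, 197 kept direction but no longer passed and 2 passed only then. Another 5 medians shifted by more than that spread, and the 2 medians above changed sign. The filter on dim probe sets was not run, and keeping 1 probe set per gene changed nothing, since each member has 1.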

Other observations

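*mug105* and *meu29*, neighbours on chromosome I, had differences between the strains of 0.20 and −0.11 with LatA. *mug116* and *mug86*, neighbours on the same chromosome, had LatA differences of −0.48 and −0.35 in *rpb1-12XS2ACTD* and of −0.69 and −0.58 in *rpb1-12XCTD*, none of them called.

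Single arrays carried some high values of members that no comparison called. *mug123* had 1.07 on replicate 2 of *rpb1-12XS2ACTD* with LatA and −0.083 and −0.20 on the other replicates. *mug96* and *mug116*, which were high on replicate 1 of *rpb1-12XS2ACTD* with DMSO, were also high on replicate 2 of *rpb1-12XCTD* with DMSO (0.92 and 1.37), against −0.059 and 0.022 for *mug96* and −0.23 and 0.13 for *mug116* on the other replicates.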
